A study of Homo sapiens with 6 samples.

Results

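The genes described here are *BEX1*, *BEX2*, *BEX3*, *BEX4*, *TCEAL1*, *TCEAL4*, *TCEAL8*, *TCEAL9*, *MAGED1* and *MAGED2*, taken by their symbols from the 31369 genes counted in HK-2 cells. All 10 were found in the table, and 9 of them had enough reads to be tested among 15878 genes, *BEX1* being the exception. The members were chosen with their measured change between the groups in view, so their differences between groups are given as a description. Counts of members past a threshold are not read as a test of them. HK-2 is an immortalised line that was made from the proximal tubule of a human kidney. RNA was sequenced from 3 control samples (NC) and 3 samples overexpressing *PPM1K* (OE), a mitochondrial phosphatase that switches on the breakdown of branched-chain amino acids. The genotype entry is WT for NC and *PPM1K* overexpress for OE. The sample titles instead read shControl and shPPM1K, and *PPM1K* counts of 37, 19 and 53 in NC against 3294, 3531 and 2919 in OE went with the genotype entries. The titles of all 6 samples say Day10, and all 6 carry the treatment entry "Chronic kidney disease", so neither differed between the groups. The cell line entry counts upward from HK-2 across the samples, whereas the cell type entry is HK-2 in each, and HK-2 was used. According to the study's methods a *PPM1K* plasmid was delivered by lipofection. What the NC cells received is not given in the sources used here.

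BEX and TCEAL genes are small X-linked genes of placental mammals that lie side by side on the long arm of the chromosome and encode short, largely unstructured proteins. BEX means brain expressed X-linked, and several BEX proteins act as adaptors, with *BEX1* and *BEX3* (also called NADE) binding the neurotrophin receptor p75NTR. TCEAL means transcription elongation factor A like, after a resemblance to the elongation factor *TCEA1* (SII), although most TCEAL proteins are much shorter and poorly understood. *MAGED1* and *MAGED2* belong to the type II melanoma antigen (MAGE) family, whose members are expressed in many tissues and often serve as partners of ubiquitin ligases. In the kidney, *MAGED2* promotes the surface expression of salt transporters of the distal nephron, and its loss causes transient antenatal Bartter syndrome.

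Total counts were 34635770 to 36116963 per sample in NC and 36033404 to 39850802 in OE. FPKM, in which fragments are divided by transcript length and sequencing depth, was used to set one gene's level beside another's. Of 10 renal epithelial markers 8 had a mean of at least 1 FPKM, *PAX8* and the keratins *KRT8* and *KRT18* among them, while none of 10 proximal tubule transporter and enzyme markers did and *LRP2* was listed at 0. The summed level of the renal epithelial markers was 983 to 1090 FPKM in NC and 831 to 900.1 in OE. Because BEX genes are known from neurons, 6 neuronal markers were also measured: *SNAP25* alone reached 1 FPKM, *ELAVL4* was listed at 0, and their sum was 2.39 to 2.61 FPKM in NC and 1.92 to 2.06 in OE. Of 5 markers each, none of the endothelial or leukocyte ones reached 1 FPKM, and of the fibroblast and pericyte ones *COL1A1* did. Endothelial sums were 0.570 to 0.720 FPKM in NC and 0.790 to 0.920 in OE, leukocyte sums 0.120 to 0.150 in NC and lower in each OE sample, and fibroblast and pericyte sums 1.51 to 1.71 and 0.870 to 1.34 (*PDGFRA* at 0). The part of these shifts in the results was not tested.

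The 8 BEX and TCEAL members sit in a cluster of 14 BEX and TCEAL genes whose starts span 1.503 Mb of chromosome X, from 102125679 to 103628704 (GENCODE release 44, GRCh38). *MAGED1* and *MAGED2* lie on the same chromosome but far outside the cluster, on its short arm. The promoters of the clustered members share a short sequence, which is shown because it was not used in choosing them. Promoter windows from RefSeq (GRCh38.p14), 250 bases before to 50 bases after the start of transcription, were matched for all 10 members. Where a gene had several windows, the one used was chosen by its letters. CANGTGA with a TGAC before it came first, then the site nearest the start. *MAGED1* and *MAGED2*, without such a site, kept the first window listed. Distances to the start, identities and base contents given below rest on this choice. The 8 stretches below are written 5′ to 3′ on the strand of the gene, with capitals marking CANGTGA and, where present, a TGAC before it. The stretches lie before the RefSeq start. Those of *BEX3*, *TCEAL1* and *TCEAL4* fall inside the span that GENCODE gives the gene, those of *BEX2* and *TCEAL8* cross its edge, and those of *BEX1*, *BEX4* and *TCEAL9* lie outside it.
BEX1 (chrX:103064207-103064236, minus strand): gcggTGACgcacggccctCACGTGAccggg
BEX3 (chrX:103376473-103376502, plus strand): gtggTGACgcgcggccctCACGTGAcccag
TCEAL1 (chrX:103628901-103628930, plus strand): gcagTGACgcgcgtccctCACGTGAccagg
BEX2 (chrX:103310998-103311027, minus strand): tggcgaTGACaacagccaCACGTGAtcggc
BEX4 (chrX:103215071-103215100, plus strand): tggcgaTGACaacagcccCACGTGAccggc
TCEAL8 (chrX:103255175-103255204, minus strand): cagtgaTGACgcgactctCACGTGAccagg
TCEAL9 (chrX:103356451-103356480, plus strand): cactggTGACgtagatctCATGTGAccagg
TCEAL4 (chrX:103585487-103585514, plus strand): ctcctgggctgcggcattCACGTGAtct

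In *BEX1*, *BEX3* and *TCEAL1*, TGAC and CANGTGA were separated by 10 bases, and in *BEX2*, *BEX4*, *TCEAL8* and *TCEAL9* by 8. CANGTGA began 47 bases before the start in *BEX1* and in *BEX3*, 19 in *BEX2* and in *BEX4*, 56 in *TCEAL1*, 31 in *TCEAL8*, 37 in *TCEAL9* and 10 in *TCEAL4*. *TCEAL4* held the second element without the first at either distance, and the windows of *MAGED1* and *MAGED2* held neither arrangement. Letters were searched on both strands. The pair, at a distance of 8 or 10 bases, was found in the windows of 61 of 27305 genes (0.223%), 7 of them members. Of the other BEX and TCEAL genes, 5 were matched and 4 held the pair, *TCEAL2*, *TCEAL3*, *TCEAL5* and *TCEAL6*, whereas *BEX5* did not. CACGTG, an E-box that many basic helix-loop-helix factors can bind, was present in 8.77% of genes and in 7 members. It overlaps CANGTGA, which was present in 17.97% of genes and in 8 members. TGATGNAA, a form of the element bound by ATF4 with C/EBP partners, was present in 4.46% of genes and, among the members, in *MAGED1*. The pair was noticed in these same promoters, so its frequency among them is a description.

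Tested members with the pair differed in both directions between the groups. *BEX2* and *BEX4*, which hold it, were higher in OE, and *BEX3*, *TCEAL1*, *TCEAL8* and *TCEAL9*, which also hold it, were lower. Of the 50 other genes in the reference with the pair, 26 were tested in the RNA data, of which 5 were lower in OE and 6 were higher at an adjusted p under 0.05. These are 19.2% and 23.1%, beside 23.7% lower and 24.9% higher among all tested genes, and their median log2 fold change was 0.02. Whether the pair has a part in these differences was not tested.

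Over the 250 bases before the start, in the windows chosen as above, the promoters of *BEX2* and *BEX4* were 85.1% identical. Those of *BEX1* and *BEX3* were 70.2% identical, and those of *TCEAL8* and *TCEAL9* 58.9%. The median over the 45 pairs of members was 51.0%, with a range of 45.05% to 85.1%. *BEX2* and *BEX4* were also the members with the highest fold changes in OE, which are values used in choosing the members. *BEX1*, of the next most alike pair, was not detected. A link between promoter likeness and these differences was not tested.

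**Figure D1:**
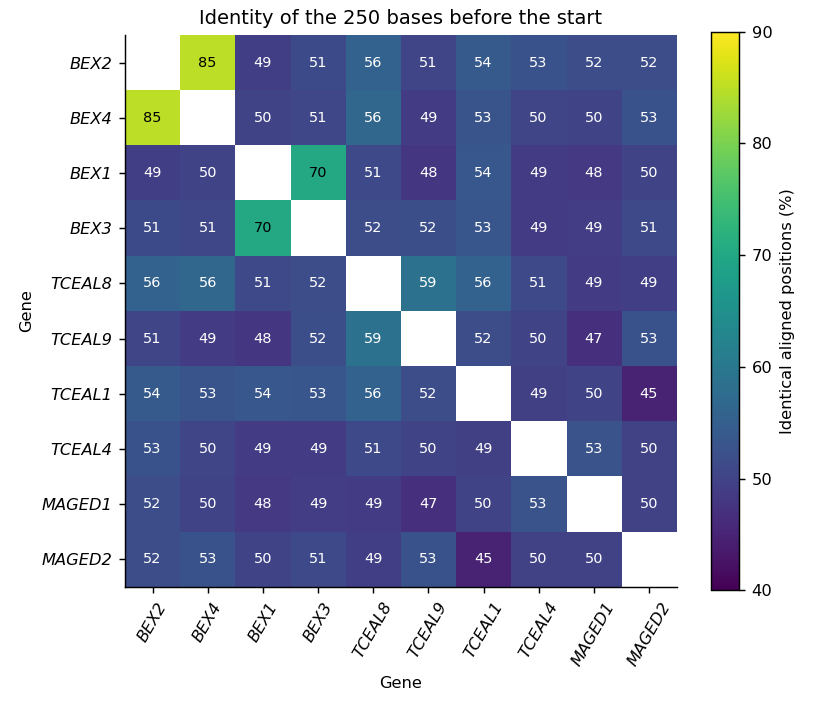
Percent of aligned positions that are identical between the 250 bases before the RefSeq start of each pair of members, from a global alignment. The start of each gene is that of the window chosen by CANGTGA and TGAC, or for *MAGED1* and *MAGED2* the first listed. *BEX2* with *BEX4* (85.1%) and *BEX1* with *BEX3* (70.2%) stand above the other pairs, and the median of all 45 pairs is 51.0%.

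The 9 tested members lay on both sides of 0, and the BEX and TCEAL members were divided within their families. In OE, *BEX2* and *BEX4* were higher and *BEX3* was lower, *TCEAL4* was higher and *TCEAL9*, *TCEAL1* and *TCEAL8* were lower, and both MAGED genes were lower. At an adjusted p under 0.05 from edgeR, 6 members lay on the lower side, beside a background of 23.7% of all tested genes, and 3 on the higher side, beside 24.9%. A gene was called where its fold change was also above 2 or below 0.5: *MAGED1* was the 1 member called lower (background 3.79%) and *BEX2* the 1 called higher (background 1.73%). CPM were counts scaled to the library size after TMM normalization. In CPM the OE and NC samples did not overlap for any of the 9, with 6 lower (background 27.1%) and 3 higher (background 28.2%). The lower side held 5 with limma on FPKM, without *TCEAL8*, and 4 without NC replicate 3, without *TCEAL8* and *TCEAL1*. Since the members were picked from this contrast, nothing is read from these shares. The median log2 fold change of the 9 was −0.19, and that of all tested genes was −0.00321. In bulk RNA such as this, fewer cells with a message and less of it per cell cannot be told apart.

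**Figure D2:**
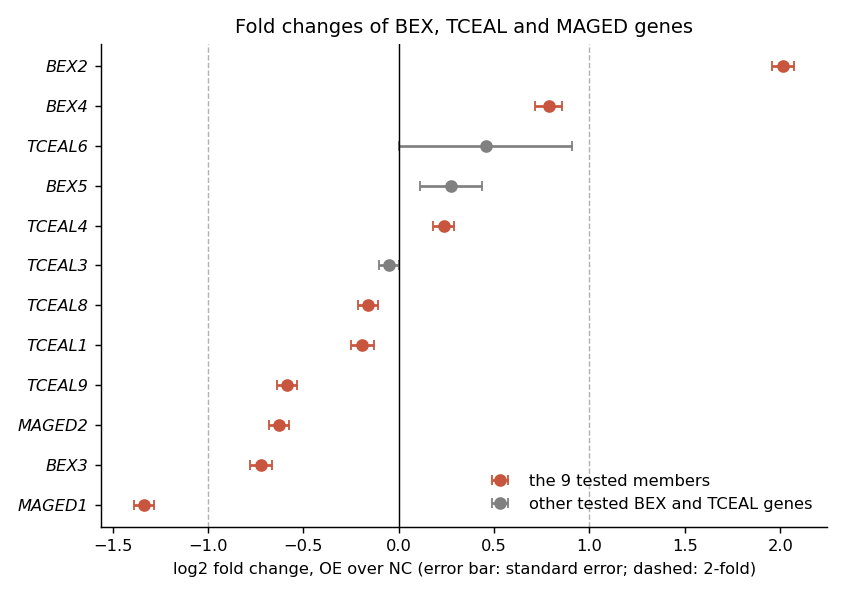
Log2 fold change of OE over NC for the 9 tested members (red) and the 3 other tested BEX and TCEAL genes (grey), with standard errors from the fit and dashed lines at a fold change of 2 either way. *BEX2* at 2.01 and *MAGED1* at −1.34 lie beyond the dashed lines, and the other members lie between −0.72 and 0.79.

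*BEX3* was the most abundant member in both groups and the most abundant BEX gene by far. *BEX3* (ENSG00000166681.14, chrX:103376395-103378164, plus strand) had counts of 27209, 26945 and 30291 in NC and 18825, 19331 and 16335 in OE. Its FPKM was 655.27, 625.63 and 699.48 in NC and 421.84, 411.44 and 382.85 in OE. Every OE sample lay below every NC sample, and the group means were 660 ± 37.2 and 405 ± 20.2 FPKM (SD, n = 3 each). Its log2 fold change was −0.72 (standard error 0.06), and its mean CPM in OE was 60.6% of that in NC. It ranked 38th among all genes by mean FPKM in NC and 77th in OE.

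*BEX2* was the member that differed most. *BEX2* proteins are best known from neural tissue and from tumour cells, where they affect survival. *BEX2* (ENSG00000133134.12, chrX:103309346-103311007, minus strand) had counts of 815, 790 and 830 in NC and 3596, 3725 and 3161 in OE. Its FPKM was 19.20, 17.94 and 18.75 in NC and 78.81, 77.54 and 72.46 in OE. The groups were far apart relative to the spread within them, with means of 18.6 ± 0.639 and 76.3 ± 3.36 FPKM (SD, n = 3 each). Its log2 fold change was 2.01 (standard error 0.06), a 4.04-fold difference, which ranked 27th from the top among tested genes. By mean FPKM it moved from rank 1919 of all genes in NC to rank 527 in OE.

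*BEX4*, the near neighbour of *BEX2* by promoter sequence, encodes a protein that associates with tubulin. *BEX4* (ENSG00000102409.10, chrX:103215108-103217246, plus strand) had counts of 773, 777 and 900 in NC and 1529, 1501 and 1458 in OE. Its FPKM was 15.78, 15.29 and 17.61 in NC and 29.04, 27.08 and 28.96 in OE. All OE samples were higher, and the means were 16.2 ± 1.22 and 28.4 ± 1.11 FPKM (SD, n = 3 each). Its log2 fold change was 0.79 (standard error 0.07), a 1.72-fold difference.

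*BEX1* (ENSG00000133169.6, chrX:103062651-103064171, minus strand), the family's p75NTR adaptor in the nervous system, had counts of 0 in 5 samples and 1 in OE replicate 3, so it was not detectable at this depth in either group. *BEX1* and *BEX2* encode closely related proteins, but no 150-base stretch of their annotated transcripts was identical. Stretches that are alike but not identical were not examined, so a mix-up of reads between these genes was not tested. Summing their counts left the log2 fold change of *BEX2* at 2.01, which could hardly differ because *BEX1* added 1 read. The promoter of the undetected *BEX1* held the same pair of elements as that of the abundant *BEX3*, at the same distance from the start.

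**Figure D3:**
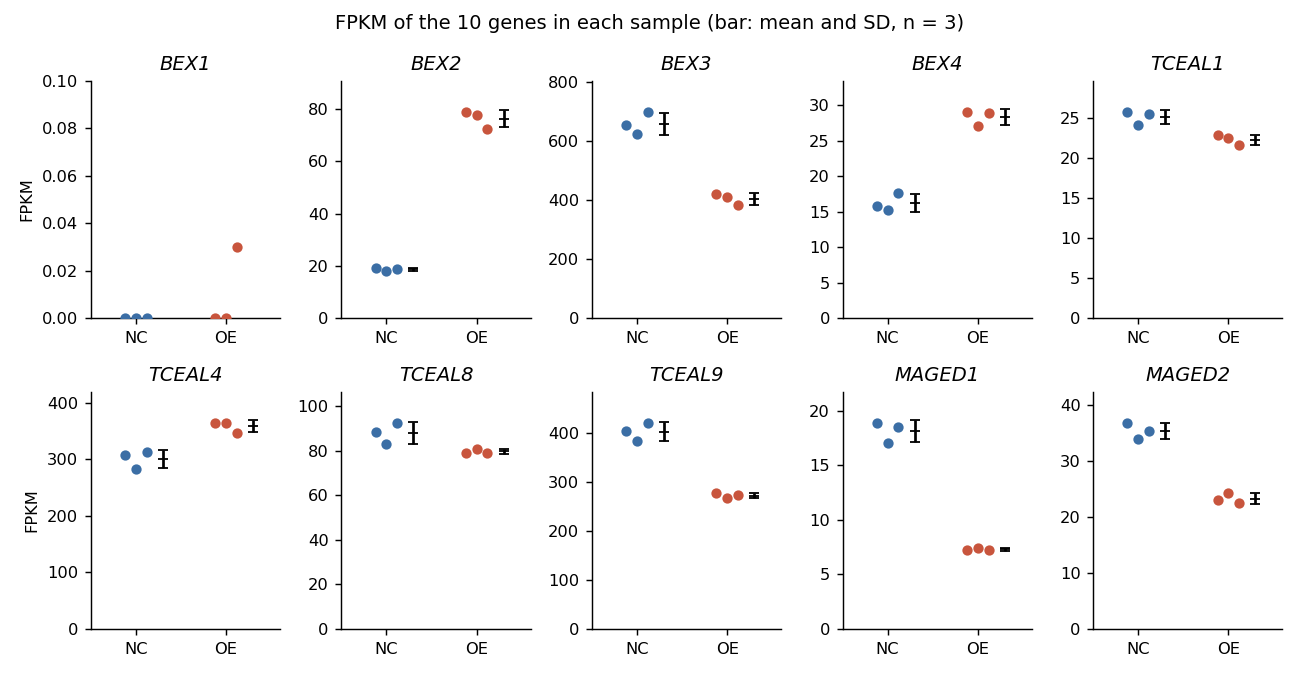
FPKM of each of the 10 members in the 3 NC (blue) and 3 OE (red) samples, with the mean and SD beside them (none is drawn for *BEX1*, at or near 0 throughout). Each vertical axis starts at 0 and has its own scale, from 0.03 FPKM for the highest *BEX1* sample to 699.48 for the highest *BEX3* sample.

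*TCEAL9* and *TCEAL4* carried most of the TCEAL message and differed in opposite directions. *TCEAL9*, formerly WBP5 (ENSG00000185222.10, chrX:103356489-103358462, plus strand), had counts of 29824, 29371 and 32449 in NC and 22028, 22302 and 20683 in OE. Its FPKM was 404.60, 384.16 and 422.11 in NC and 278.06, 267.40 and 273.08 in OE. The OE samples were all below the NC samples and closer to each other than these, with means of 404 ± 19.0 and 273 ± 5.33 FPKM (SD, n = 3 each). Its log2 fold change was −0.58 (standard error 0.05), and its mean CPM in OE was 66.7% of that in NC.

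*TCEAL4* (ENSG00000133142.18, chrX:103576231-103587729, plus strand) had counts of 28839, 27508 and 30490 in NC and 36709, 38662 and 33434 in OE. Its FPKM was 307.57, 282.85 and 311.80 in NC and 364.28, 364.41 and 347.02 in OE. All OE samples were higher, by a log2 fold change of 0.23 (standard error 0.05), a 1.18-fold difference. In NC the level of *TCEAL9* was above that of *TCEAL4* in every sample, and in OE the order was the opposite in every sample.

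*TCEAL8* and *TCEAL1* differed least. *TCEAL8* (ENSG00000180964.17, chrX:103252995-103255192, minus strand) had FPKM of 88.43, 82.72 and 92.51 in NC and 78.87, 80.85 and 79.11 in OE, and its log2 fold change was −0.16 (standard error 0.05). The highest OE sample was 80.85 and the lowest NC sample 82.72, so the groups were barely apart. *TCEAL1* (ENSG00000172465.14, chrX:103628704-103630953, plus strand), which encodes a nuclear phosphoprotein, had FPKM of 25.74, 24.11 and 25.47 in NC and 22.83, 22.44 and 21.60 in OE, and its log2 fold change was −0.19 (standard error 0.06). *TCEAL1* overlaps *TCEAL3* in the annotation, and 3.42% of its 150-base stretches are identical to stretches of *TCEAL3*, so its counts are the least certain of the members. For every other member no such stretch was shared with another gene.

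*MAGED1* had the lowest fold change of the members in the sequencing data; the study's RT-PCR of this gene was not analysed here. It encodes NRAGE, an adaptor of p75NTR and of the netrin receptor *UNC5A* that takes part in apoptosis in neurons. *MAGED1* (ENSG00000179222.18, chrX:51803007-51902354, plus strand) had counts of 4251, 3976 and 4342 in NC and 1752, 1889 and 1663 in OE. Its FPKM was 18.93, 17.07 and 18.54 in NC and 7.26, 7.44 and 7.21 in OE. The OE samples were all below the NC samples and nearly equal, with means of 18.2 ± 0.981 and 7.30 ± 0.121 FPKM (SD, n = 3 each). Its log2 fold change was −1.34 (standard error 0.05), and its mean CPM in OE was 39.6% of that in NC. By mean FPKM it moved from rank 1962 in NC to rank 4106 in OE. Its span holds the annotated genes ENSG00000236576 and *RNU6-504P*.

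*MAGED2* (ENSG00000102316.17, chrX:54807599-54816015, plus strand) had counts of 4043, 3869 and 4048 in NC and 2706, 3024 and 2530 in OE. Its FPKM was 36.79, 33.94 and 35.32 in NC and 22.91, 24.32 and 22.41 in OE. All OE samples were lower, with means of 35.3 ± 1.43 and 23.2 ± 0.990 FPKM (SD, n = 3 each). Its log2 fold change was −0.63 (standard error 0.05), and its mean CPM in OE was 64.8% of that in NC. The gene holds the small nucleolar RNA *SNORA11*.

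Summed over each family, the FPKM of the members was lower in OE, and its composition differed. The BEX sum was 695 ± 38.7 FPKM in NC and 510.02 ± 23.3 in OE (SD, n = 3 each). *BEX3* made up 95.0% of it in NC and 79.5% in OE, while *BEX2* made up 2.68% and 15.0% and *BEX4* 2.33% and 5.57%. The 4.04-fold difference of *BEX2* added less FPKM than the smaller relative difference of *BEX3* took away. The TCEAL sum was 817 ± 39.8 and 733 ± 11.7 FPKM. *TCEAL9* went from 49.4% to 37.2% of it and *TCEAL4* from 36.8% to 48.9%, while *TCEAL8* (10.8% and 10.9%) and *TCEAL1* (3.07% and 3.04%) held their shares. The MAGED sum was 53.5 ± 2.37 and 30.5 ± 1.11 FPKM, and the share of *MAGED2* in it was 66.0% in NC and 76.1% in OE. The 10 members together took 0.293% of all counts in NC and 0.240% in OE.

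**Figure D4:**
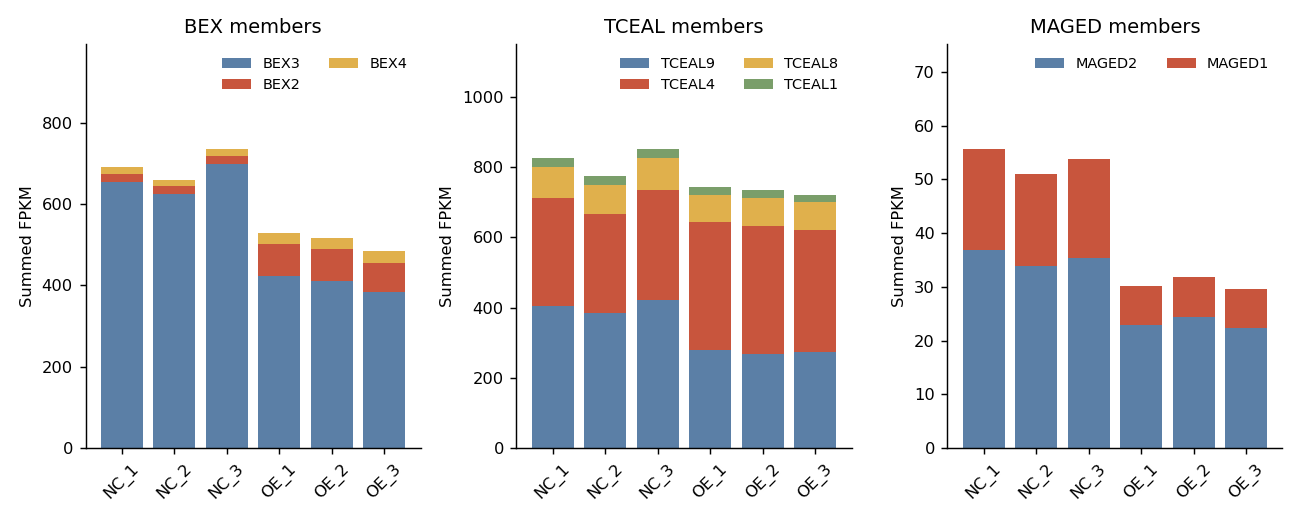
FPKM of the members stacked by family in each sample, for BEX (left), TCEAL (middle) and MAGED (right); bars start at 0, and *BEX1* is too low to draw. The BEX bar is shorter in OE although its *BEX2* segment is taller, and in the TCEAL bar the *TCEAL4* segment is larger than the *TCEAL9* segment in OE alone.

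By FPKM the members ran in NC from *BEX3* through *TCEAL9*, *TCEAL4*, *TCEAL8*, *MAGED2*, *TCEAL1*, *BEX2*, *MAGED1* and *BEX4* to *BEX1*. The ranges of *BEX2* and *MAGED1* overlapped, as did those of *MAGED1* and *BEX4*, and other neighbours in this order did not. In OE the order was *BEX3*, *TCEAL4*, *TCEAL9*, *TCEAL8*, *BEX2*, *BEX4*, *MAGED2*, *TCEAL1*, *MAGED1* and *BEX1*, and the ranges of *MAGED2* and *TCEAL1* overlapped. Within a group, the coefficient of variation of CPM of the tested members was 1.74% to 7.22%.

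The median profile of the tested members across the 6 samples was compared with that of 13452 other genes with a mean of at least 1 CPM, by the root mean square distance between centred log2 CPM. The closest were *HSPA5* (distance 0.0106), *YBX3* (0.0169) and *IARS2* (0.0169). Their log2 fold changes were −0.22, −0.20 and −0.24, which the choice by profile fixes to be near the median of the members. That median stands for members on both sides of 0 and is unlike *BEX2* or *MAGED1*.

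Of the other 6 BEX and TCEAL genes 3 were tested and 0 passed an adjusted p of 0.05 in edgeR on either side; at an unadjusted p under 0.05 the count was also 0, and so it was with DESeq2 and with limma on log2(FPKM + 1). *TCEAL3*, the neighbour of *TCEAL1*, was measured well, with counts of 6382, 6237 and 6782 in NC and 6895, 6932 and 6123 in OE, and differed by −0.05 on the log2 scale (standard error 0.05, adjusted p = 0.447). *BEX5* differed by 0.27 (standard error 0.16, adjusted p = 0.179) and *TCEAL6* by 0.46 (standard error 0.45, adjusted p = 0.428), the former spread over 124 to 220 counts in OE and the latter at 5 to 17 counts in all samples. *TCEAL2*, *TCEAL5* and *TCEAL7* did not pass the filter on low counts. Without OE replicate 1, *BEX5* passed on the higher side (0.45, adjusted p = 0.0250). The median of the 3 was 0.27.

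Genes in and around the cluster lay on both sides of 0 as well. Within 1 Mb of a BEX or TCEAL gene, 70 genes that are not members were in the table and 36 were tested, of which, by the same adjusted p, 12 lay lower and 5 higher (background 23.7% and 24.9%), with a median log2 fold change of −0.05. They include the other 6 BEX and TCEAL genes, 3 of them tested, and all 9 ARMCX and GPRASP genes, 8 of them tested, so these counts overlap with those of the 2 families. The smallest p-values were those of *ZMAT1*, which encodes a zinc finger protein and fell by 0.59 on the log2 scale (standard error 0.06, adjusted p = 1.8e-07), *ARMCX3* and *ARMCX5*. Of these 36, the 2 called lower (background 3.79%) were *MORF4L2-AS1* (−2.27) and *RP5-1055C14.9* (−1.29), named here after their values were seen, with mean counts of 11.3 and 26.5 and overlaps with other genes. The 5 higher were *ARMCX5* and, likewise named afterwards, *TIMM8A* (0.60), *RP13-349O20.2* (0.88), *ARMCX5-GPRASP2* (0.27) and *MORF4L2* (0.12). The last 2 did not pass with the replicate block, with upper quartile normalization or without NC replicate 1, which leaves 3. Under the symbol *ARMCX5-GPRASP2* there is another tested entry (0.29, standard error 0.12), which was not among the 5, and both entries overlap *GPRASP2*. Along the chromosome the members came in the order *BEX4* (0.79), *TCEAL8* (−0.16), *BEX2* (2.01), *TCEAL9* (−0.58), *BEX3* (−0.72), *TCEAL4* (0.23) and *TCEAL1* (−0.19).

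**Figure D5:**
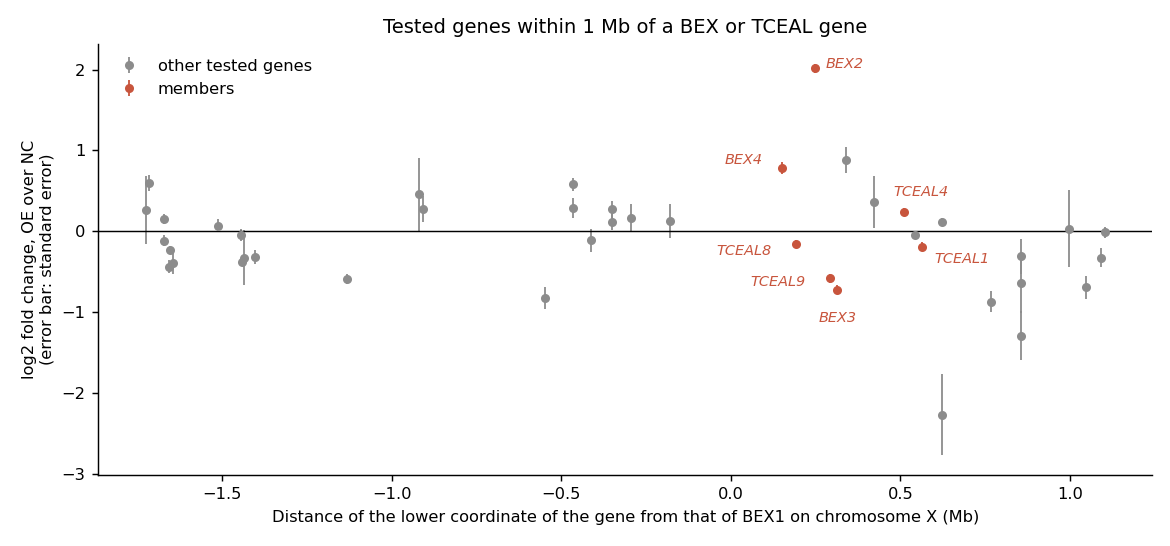
Log2 fold change of OE over NC, with standard errors, for the tested genes within 1 Mb of a BEX or TCEAL gene, against the distance in Mb between the lower coordinates of the gene and of *BEX1*. The 7 tested members of the cluster (red) lie at 0.151 to 0.565 Mb with values from −0.72 (*BEX3*) to 2.01 (*BEX2*), among other genes (grey) on both sides of 0.

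The ARMCX and GPRASP genes are armadillo-repeat and receptor-sorting genes of the same region as the BEX and TCEAL genes. Of 9 in the list 8 were tested, 3 were lower and 1 higher (background 23.7% and 24.9%), and the median was −0.08. *ARMCX3*, which encodes a mitochondrial outer membrane protein, fell by 0.38 (standard error 0.05, adjusted p = 2.8e-06), and *ARMCX2* fell by 0.32 (standard error 0.09, adjusted p = 0.0061). *ARMCX4*, named after its value was seen, fell by 0.40 (adjusted p = 0.0146). *ARMCX5* rose by 0.58 (standard error 0.08, adjusted p = 3.0e-06). *GPRASP3*, listed under its older symbol *BHLHB9*, did not pass the filter.

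Among the other type II MAGE genes, 8 of 10 were in the table and 7 were tested, of which 4 were lower and 1 was higher (background 23.7% and 24.9%), with 2 called lower (background 3.79%) and a median of −0.25. *MAGED4B* fell by 1.32 (standard error 0.21, adjusted p = 3.1e-05), with counts of 92, 99 and 79 in NC and 41, 45 and 29 in OE. *MAGED4* fell by 1.10 (standard error 0.26, adjusted p = 0.0013), with counts of 59, 57 and 43 in NC and 25, 28 and 26 in OE. The 2 are near-identical copies, with 97.6% of the 150-base stretches of *MAGED4* and 95.8% of those of *MAGED4B* found in another gene. Only uniquely mapped reads were counted, so reads that fit both copies were left out and the counts rest on what remained. Their levels are therefore uncertain, and the 2 calls are not those of 2 clearly separate genes. *MAGEF1*, which encodes a partner of a ubiquitin ligase of the iron-sulfur cluster pathway, rose by 0.21 (standard error 0.06, adjusted p = 0.0051). The other 2 lower genes, named after their values were seen, were *MAGEE1* (−0.54, adjusted p = 0.0161) and *NDN* (−0.25, adjusted p = 0.0446), and with DESeq2 neither passed. *TRO* did not pass the filter.

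Of 9 partner genes of *MAGED1* and *MAGED2*, 5 were tested, with 1 lower, 1 higher (background 23.7% and 24.9%) and a median of −0.03, so that the shares were near the background. *AATF*, which encodes a transcription cofactor bound by *MAGED1*, rose by 0.68 (standard error 0.05, adjusted p = 3.9e-10), from 580 to 932 CPM. *DNAJB1*, an HSP40 chaperone bound by *MAGED2*, fell by 0.25 (standard error 0.05, adjusted p = 4.7e-04). Without OE replicate 1, *UNC5A* also passed on the lower side (−0.69, adjusted p = 0.0392). *DLX5* and *MSX2*, homeobox factors bound by *MAGED1*, and *SLC12A1* and *SLC12A3*, the transporters that *MAGED2* promotes, did not pass the filter.

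Of 24 genes of p75NTR and neurotrophin signalling, the pathway in which *BEX1*, *BEX3* and *MAGED1* are adaptors, 18 were tested. At an adjusted p under 0.05, 4 were lower and 8 higher (background 23.7% and 24.9%), 1 was called, on the higher side (background 1.73%), and the median was 0.09. *IRAK1*, a kinase of the receptor's NF-kB branch, rose by 0.57 (standard error 0.05, adjusted p = 2.2e-08), and *RIPK2*, another kinase that binds the receptor, fell by 0.66 (standard error 0.07, adjusted p = 6.2e-08). *ARHGDIA*, which encodes another protein that binds the receptor, rose by 0.32 (standard error 0.05, adjusted p = 2.5e-05). *NGFR*, the receptor itself, was the gene called and is named after its value was seen: it rose by 1.14 (standard error 0.37, adjusted p = 0.0154) at a mean count of 18.5, from 0.31 to 0.69 CPM. The receptor's own message was thus scarce in both groups, and the neurotrophin receptors *NTRK2* and *NTRK3* did not pass the filter, nor did *NTF3*, *NTF4* and *LINGO1*. The 4 lower genes were *RIPK2* and, named afterwards, *RHOA* (−0.19), *SORT1* (−0.25) and *TRAF6* (−0.53).

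The 26 transcription elongation genes, the machinery after which TCEAL genes are named, were all tested. At an adjusted p under 0.05, 4 were lower and 14 higher (background 23.7% and 24.9%), 1 was called, on the higher side (background 1.73%), and the median was 0.14. *TCEA1*, the elongation factor SII itself, was the gene called and rose by 1.13 (standard error 0.05, adjusted p = 3.4e-13), from 240 to 525 CPM. Its paralogue *TCEA3* fell by 0.92 (standard error 0.06, adjusted p = 1.0e-10), from 187 to 98.5 CPM. *CDC73*, a subunit of the *PAF1* complex that travels with elongating polymerase, rose by 0.72 (standard error 0.06, adjusted p = 1.1e-09). The other 3 lower genes, named after their values were seen, were *NELFCD* (−0.32), *RTF1* (−0.30) and *ELL3* (−0.46). *TCEA2*, likewise named afterwards, differed by −0.04 (adjusted p = 0.70). All of these lists were written with earlier results of these data known, and their counts are beside the background and not tested against it.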

How the data were processed

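Libraries of 3 NC and 3 OE samples of HK-2 cells were made by the authors with a stranded mRNA kit and sequenced. Reads were filtered for N bases, trimmed with FASTX-Toolkit and aligned with HISAT2 to GRCh38, and uniquely mapped reads were counted per gene. The authors deposited these counts, without normalization, for 31369 genes, and FPKM values from the same reads for 30896 genes. The submitters' processing notes also name mm10, which was not used here. The counting program, the annotation and the use of strand are not given in the sources used here, so counts of overlapping genes are uncertain. Groups were taken from the genotype entries. The study calls its replicates biological; how the cultures were kept apart is not given in the sources used here.

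Low genes were removed from the deposited counts by filterByExpr, libraries were scaled by TMM, and OE was compared with NC by the quasi-likelihood test of edgeR (version 4.0.16, R 4.3.3). Benjamini-Hochberg adjustment ran over the 15878 genes left, and a call needed both an adjusted p below 0.05 and a fold change over 2 or under 0.5. The members and the lists were chosen with earlier results of these data known. Named were all members, *PPM1K*, up to 3 genes per list with the smallest p, those missing or filtered, and the 3 genes most like the members. Alternatives were DESeq2 1.42.0, the test of the study, limma 3.58.1 on log2(FPKM + 1) and log2(FPKM + 0.1) for genes with at least 0.1 FPKM in 3 samples, other normalizations, no filter, the replicate block and each sample left out.

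GENCODE release 44 held 31292 of the identifiers once version numbers were dropped, and promoters came from RefSeq. Replicate counts differed beyond sampling noise, so each sample counted once. *MAGEE2* and *MAGEL2* were not analysed here. Some values were left out and are not reported here. Python 3.11.15 with matplotlib 3.10.9 drew the figures.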

Additional observations from a re-analysis of the deposited data

How the results depend on the processing

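All 9 tested members kept their direction under the 14 alternatives, in 126 of 126 values. The members were picked from this contrast and every alternative reuses the same samples, so this tally is a description and no independent check. Of 252 counts recomputed, 243 stayed within 1.5 times the reported count. The members at an adjusted p under 0.05 on the lower side were 6, and 4 to 6 with a sample left out, *TCEAL1* and *TCEAL8* being those that dropped out, and 5 in each limma fit, without *TCEAL8*, and the 1 called higher and 1 called lower stayed at 1 each. The other type II MAGE genes on the lower side went from 4 to 2 with DESeq2 and with limma on log2(FPKM + 1) without a filter, where the p75NTR list on the lower side also went from 4 to 2. The Xq22 neighbours on the higher side went from 5 to 3 with the replicate block, with upper quartile normalization and with limma without a filter, and were 3 to 4 with a sample left out. Other BEX and TCEAL genes on the higher side were 0 to 1 and partner genes on the lower side 1 to 2 with a sample left out. The cause was not tested. Deviations of same-numbered samples correlated at −0.000865, −0.0588 and −0.0452, so the numbers were not taken to pair samples; with the replicate block *PPM1K* stayed at 6.39 and the members at 6 lower and 3 higher. DESeq2 and edgeR without a filter covered all 31369 genes, with a median log2 fold change of −0.13 in each. With 3 samples a group, small differences such as those of *TCEAL1* and *TCEAL8* are at the limit of what the spread allows, and counts of *BEX1*, *TCEAL6*, *NGFR*, *MAGED4* and *MAGED4B* were low.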

Other observations

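In the promoter windows chosen by CANGTGA and TGAC, base content was also counted. The 250 bases before the start held 65.6% G and C in *BEX1* and in *BEX3*, 61.2% in *BEX2* and 61.6% in *BEX4*. They held 47.2% in *TCEAL4* and 48.8% in *MAGED1*, and from 49.6% (*TCEAL8*) to 56.4% (*TCEAL1*) in the other members. The undetected *BEX1* had 19 CpG dinucleotides there and the abundant *BEX3* had 18, whereas *MAGED1* and *MAGED2* had 6 each. The other members ranged between these, from 7 in *TCEAL4* to 14 in *TCEAL8*. DNA methylation and protein levels of these genes were not analysed here.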
